A study of Mus musculus with 6 samples.

Results

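Mammalian DNA methylation is written, copied and removed by a small set of genes, and 7 of them are described here across mNET-seq libraries of mouse embryonic stem cells with and without Mettl3. They are the methyltransferases Dnmt1, Dnmt3a and Dnmt3b, the catalytically inactive cofactor Dnmt3l, the Dnmt1 partner Uhrf1, and the dioxygenases Tet1 and Tet2. The members were chosen by symbol: every transcript of these genes in the deposited escaping index matrix was taken, which gave 51 of 68473 transcripts. Since 3 Dnmt3l transcripts held identical values and were counted once, as Dnmt3l-202, the 51 correspond to 49 distinct transcripts. No transcript was removed for a low value. A further 21 annotated transcripts of these genes were not analysed here.

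The study examined transcription in C57BL/6 mouse embryonic stem cells in 3 groups of 2 libraries: Mettl3 knockout KO1, Mettl3 knockout KO2 and control. Mettl3 is the enzyme that methylates adenosines in RNA to give m6A. All 3 groups shared serum medium with LIF and the kinase inhibitors CHIR99021 and PD0325901, a naive culture condition. In mNET-seq, chromatin is digested with micrococcal nuclease, RNA polymerase II is immunoprecipitated, and the short RNA fragments it holds are sequenced, so that polymerase positions along genes are read out. The labels used here do not say how the knockouts were made, whether KO1 and KO2 are each a single clone, or whether the 2 libraries of a group were separate cultures. The p-values therefore cover no more than the spread of these 6 libraries, which may be technical. KO1 and KO2 were compared with the same 2 control libraries.

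The deposited value is an escaping index in log2, read here as a ratio within a transcript. The windows behind it were not given in the sources used here, and it was higher for transcripts with a longer genomic span, as a ratio of signal downstream to signal near the start would be when it is not scaled to length. It is no measure of RNA abundance or of total polymerase. The depth per library is unknown, so no counting interval is given. The libraries are from bulk cells, in which a change in every cell and a change in the share of cells cannot be told apart. All 12 embryonic stem cell markers listed had a transcript in the table, as did 4 of 10 fibroblast markers (Col1a2, Col3a1, Dcn, Lum, Postn and Twist2 had none) and 1 of 9 primed or differentiated cell markers, Otx2. Over all 66944 distinct transcripts, the median index was 2.98 and 2.97 in KO1, 2.87 and 2.87 in KO2, and 3.19 and 3.20 in control. The principal transcript of a gene is taken here as its coding transcript with the longest genomic span in the table. That of Mettl3 itself, Mettl3-201, had an index of 2.44 and 2.42 in KO1, 2.10 and 2.30 in KO2, and 2.69 and 2.46 in control. Neither change of Mettl3-201 passed the test (limma adjusted p = 0.682 in KO1, 0.242 in KO2), and a ratio within a gene cannot show whether its product was lost.

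Dnmt3a and Dnmt3b place methyl groups on unmethylated CG dinucleotides, and Dnmt3l, which has no catalytic activity of its own, binds and stimulates them in germ cells and embryonic stem cells. Uhrf1 recognises hemimethylated DNA behind the replication fork and brings Dnmt1, which copies the mark to the daughter strand. Tet1 and Tet2 oxidise methylated cytosine and so start its removal. Mouse embryonic stem cells use an internal Dnmt3a promoter that gives a shorter isoform, Dnmt3a2, beside the promoter of the full-length enzyme.

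Starts of Dnmt3a, Dnmt3b and Tet2, the genes with calls, are shown as RefSeq promoter windows on GRCm38.p6, each from 250 bases before to 50 bases after a start. Capitals mark the CG dinucleotide, the substrate of these enzymes, which reads the same on both strands.
Dnmt3a, upstream start, chr12:3806910-3807209, plus strand: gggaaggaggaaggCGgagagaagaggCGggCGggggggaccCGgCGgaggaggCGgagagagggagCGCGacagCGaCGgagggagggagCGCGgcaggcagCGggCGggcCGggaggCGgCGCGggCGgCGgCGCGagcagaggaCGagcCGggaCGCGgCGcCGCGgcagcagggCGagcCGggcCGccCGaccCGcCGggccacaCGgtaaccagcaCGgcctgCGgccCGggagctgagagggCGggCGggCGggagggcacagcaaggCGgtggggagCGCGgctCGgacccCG
Dnmt3a, internal start, chr12:3891494-3891793, plus strand: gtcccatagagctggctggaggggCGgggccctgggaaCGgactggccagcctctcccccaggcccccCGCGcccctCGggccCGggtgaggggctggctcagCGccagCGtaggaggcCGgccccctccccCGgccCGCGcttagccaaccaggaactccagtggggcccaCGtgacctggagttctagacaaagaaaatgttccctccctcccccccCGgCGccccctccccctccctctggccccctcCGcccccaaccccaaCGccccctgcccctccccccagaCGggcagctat
Dnmt3b, chr2:153649199-153649498, plus strand: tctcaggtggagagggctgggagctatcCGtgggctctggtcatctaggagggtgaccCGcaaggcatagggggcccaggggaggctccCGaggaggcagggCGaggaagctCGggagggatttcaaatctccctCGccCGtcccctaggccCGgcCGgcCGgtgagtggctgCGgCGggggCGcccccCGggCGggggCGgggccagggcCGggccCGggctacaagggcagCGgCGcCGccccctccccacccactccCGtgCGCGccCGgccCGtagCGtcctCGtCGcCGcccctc
Tet2, chr3:133544341-133544640, minus strand: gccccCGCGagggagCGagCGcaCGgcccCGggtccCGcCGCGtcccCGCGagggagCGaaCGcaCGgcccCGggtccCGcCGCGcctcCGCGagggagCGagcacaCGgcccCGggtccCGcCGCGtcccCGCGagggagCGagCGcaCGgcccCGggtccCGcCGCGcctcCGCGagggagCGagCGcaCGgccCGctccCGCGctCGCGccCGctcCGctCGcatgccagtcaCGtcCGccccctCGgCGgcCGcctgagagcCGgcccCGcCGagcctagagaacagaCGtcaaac
Over 32851 RefSeq promoters of this length, 94.6% held at least 1 CG and the median was 7. The Tet2 window held 57 CG, and 0.152% of promoters held as many. The upstream Dnmt3a window held 47, a number reached by 1.44% of promoters, and its internal window 18, reached by 29.7%. The Dnmt3b window held 30, reached by 11.7%. The internal Dnmt3a window belongs to the start of Dnmt3a-203 and the Tet2 window to the start of Tet2-201 (none is shown for Tet2-205, which starts outside it), while the upstream Dnmt3a and the Dnmt3b starts lie 102 and 168 bases from those of Dnmt3a-204 and Dnmt3b-207. These are counts of letters in a window and say nothing of its methylation in these cells.

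Calls fell on 5 of the 49 member transcripts, from Tet2, Dnmt3a and Dnmt3b. In KO2, 4 transcripts passed the test: Tet2-205, which starts upstream of the main Tet2 promoter, Dnmt3a-205 and Dnmt3a-203, which start at the internal Dnmt3a promoter, and Dnmt3b-207, the principal transcript of Dnmt3b. All 4 fell, by 1.11 to 1.97 on the log2 scale. In the average of both knockouts, Tet2-205, Dnmt3a-205 and Dnmt3a-217 fell. In KO1, no member passed, and all members of Dnmt1, Dnmt3l, Uhrf1 and Tet1 were without a call in every comparison.

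These calls were set against the background over all transcripts, which was itself mostly downward. The 4 calls in KO2 are 8.16% of the 49 members, against 9.79% of 66944 transcripts, of which 9.40% were lower and 0.387% higher. The 3 calls in the average of both knockouts are 6.12% of members, against 8.49% of all, of which 8.15% were lower. In KO1, 0 of 49 members and 0% of all transcripts were called by limma at an adjusted p under 0.05, and 4 members (8.16%) and 16084 transcripts (24.0%) had an unadjusted p under 0.05. The smallest adjusted p over all transcripts in KO1 was 0.0713. The members' share of calls is thus near or under the background and is no result about the group. The members' median change was -0.02 in KO1 and -0.08 in KO2, against -0.20 and -0.32 over all transcripts. Whatever their p, 26 members were below 0 in KO1 (65.5% of all transcripts were) and 30 in KO2 (71.1% of all). After each library was centred on its own median, 18 and 15 of the 49 were below 0, beside 32712 and 32911 of 66944 transcripts. Directions of single members are given below on the deposited scale, and a member's change relative to the median of all transcripts is given where it passed the test.

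**Figure D1:**
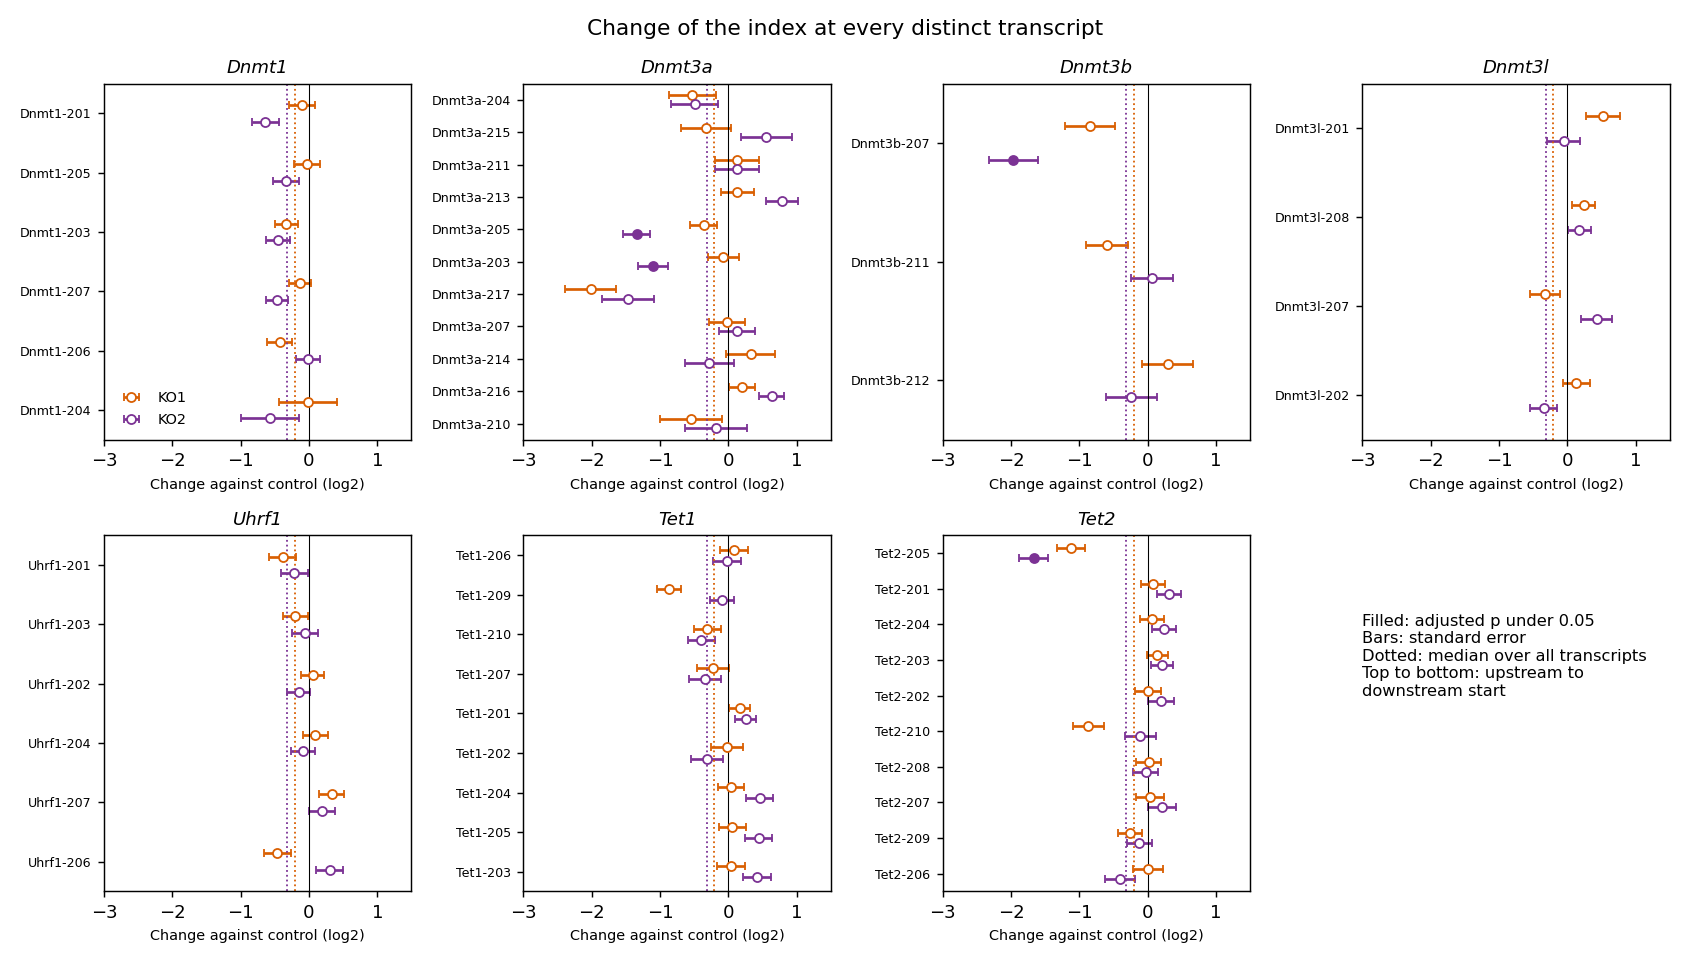
Change of the escaping index (log2, x axis, bars are the SE of the limma fit) for each of the 49 distinct member transcripts, grouped by gene and ordered from upstream to downstream start, in KO1 against control and KO2 against control. Filled points passed an adjusted p under 0.05, and the dotted line is the median over all transcripts, -0.20 in KO1 and -0.32 in KO2; the 4 filled points are Dnmt3a-205, Dnmt3a-203, Dnmt3b-207 and Tet2-205, all in KO2.

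The de novo methyltransferase Dnmt3a lies on the plus strand of chromosome 12 (3806007 to 3914443, mm10) and had 11 distinct transcripts. Dnmt3a-204, which starts at position 3807058 beside the upstream promoter shown above and spans 89.9 kb, was the longest coding transcript of the gene measured. Its index was 6.59 and 7.21 in KO1, 7.30 and 6.56 in KO2, and 7.55 and 7.30 in control. Both KO1 libraries were below both controls and KO2 overlapped them, but the libraries of each knockout differed by more than 0.6, and neither change passed (-0.53 ± 0.34 in KO1 and -0.49 ± 0.34 in KO2, SE, limma adjusted p of 0.395 and 0.374). Whether strand was used in counting was not given in the sources used here, and Dnmt3a-204 overlaps the antisense gene Dnmt3aos.

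At the internal promoter, the KO2 libraries stood apart. Dnmt3a-203, a coding transcript that starts 84686 bases downstream of Dnmt3a-204 at position 3891744 and spans 22.7 kb, had an index of 3.41 and 3.35 in KO1, 2.24 and 2.45 in KO2, and 3.23 and 3.68 in control. On the linear scale, with any offset the authors added left in, the index was 10.7 and 10.2 in KO1, 4.72 and 5.47 in KO2, and 9.36 and 12.8 in control. Both KO2 libraries lay below all 4 others, and KO1 overlapped control. The index fell by 1.11 ± 0.22 in KO2 (SE, limma adjusted p = 0.0416), or by 0.79 relative to the median of all transcripts, and its change in KO1 was -0.07 ± 0.22 (adjusted p = 0.871). KO1 minus KO2 was 1.04 ± 0.22, with a limma adjusted p of 0.188, so a difference between the knockouts was not established.

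Dnmt3a-205 starts 16 bases upstream of Dnmt3a-203 at position 3891728, spans 16.1 kb, and shares most of its range with it, so it is no independent observation. Its index was 2.49 and 2.21 in KO1, 1.27 and 1.47 in KO2, and 2.73 and 2.70 in control. All 4 knockout libraries lay below both controls, with KO2 lowest. The transcript fell by 1.34 ± 0.20 in KO2 (SE, limma adjusted p = 0.0354) and by 0.85 ± 0.17 in the average of both knockouts (adjusted p = 0.0442), which is 1.02 and 0.59 below the medians of all transcripts. In KO1 alone the change was -0.36 ± 0.20 (adjusted p = 0.316).

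Another coding transcript, Dnmt3a-217, begins 87811 bases downstream of Dnmt3a-204 and spans 2.11 kb. It had an index of 0.19 and -0.04 in KO1, 0.42 and 0.82 in KO2, and 2.60 and 1.59 in control. The groups did not overlap, although the controls stood 1.01 apart. It fell by 1.74 ± 0.32 in the average of both knockouts (SE, limma adjusted p = 0.0402), or by 1.48 relative to the median of all transcripts, while neither knockout passed alone (-2.01 ± 0.37 in KO1, adjusted p = 0.0763; -1.47 ± 0.37 in KO2, adjusted p = 0.0618).

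Other Dnmt3a transcripts had no call, and some lay higher in KO2. Dnmt3a-213, whose span runs across the internal promoter, had 2.05 and 2.19 in KO1, 2.85 and 2.70 in KO2, and 1.72 and 2.26 in control, so that both KO2 libraries lay above both controls. Its change in KO2 was 0.78 ± 0.24 (SE, limma adjusted p = 0.0894), the highest change of any member, and it did not pass. Dnmt3a-216, further downstream, had 1.03 and 1.06 in KO1, 1.54 and 1.42 in KO2, and 0.77 and 0.93 in control, with every knockout library above both controls (KO2 change 0.63 ± 0.19, limma adjusted p = 0.0841). Dnmt3a-215, which also overlaps Dnmt3aos, had 5.48 and 4.63 in KO1, 5.55 and 6.32 in KO2, and 5.43 and 5.34 in control, and did not pass. Dnmt3a-211, Dnmt3a-207, Dnmt3a-214 and Dnmt3a-210 had changes of -0.55 to 0.32 over KO1 and KO2, with limma adjusted p of 0.500 to 0.976.

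**Figure D2:**
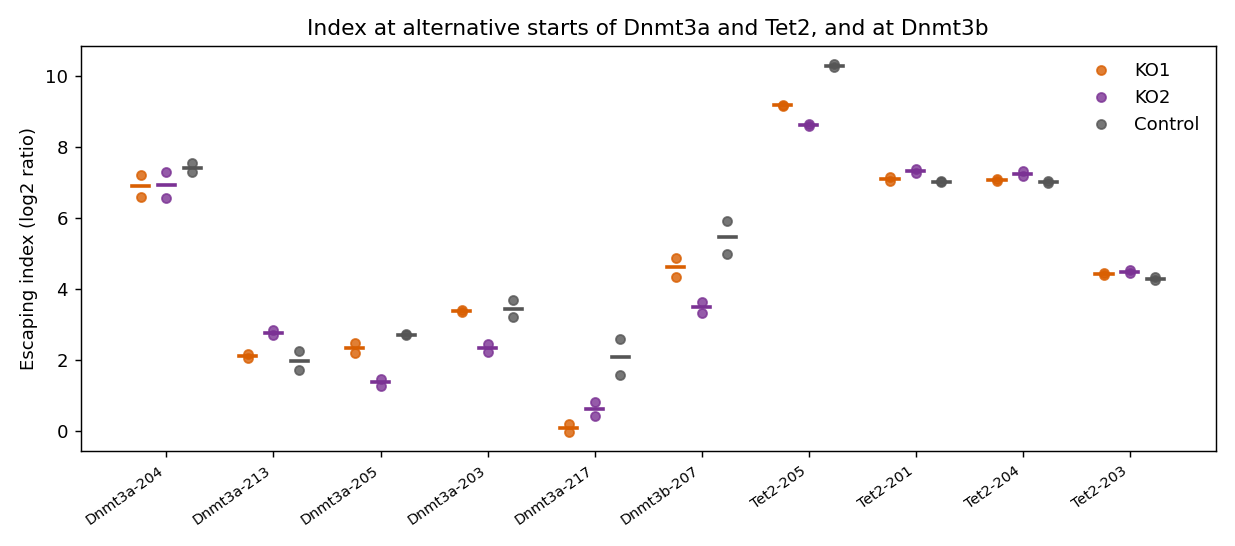
Escaping index (log2, y axis) in each of the 6 libraries for the alternative starts of Dnmt3a and Tet2 and for Dnmt3b-207, with KO1, KO2 and control side by side and bars at the group means. At the internal Dnmt3a start, Dnmt3a-203 sits at 2.24 and 2.45 in KO2 against 3.23 and 3.68 in control; at the upstream Tet2 start, Tet2-205 sits at 9.18 and 9.17 in KO1 and 8.66 and 8.59 in KO2 against 10.33 and 10.26 in control, while Tet2-201 is highest in KO2.

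Dnmt3b, the other de novo enzyme, lies on the plus strand of chromosome 2 (153649450 to 153687730). Its principal transcript, Dnmt3b-207, starts at position 153649617 and spans 37.7 kb. The index was 4.35 and 4.88 in KO1, 3.65 and 3.33 in KO2, and 5.92 and 5.00 in control. On the linear scale these are 20.4 and 29.4 in KO1, 12.5 and 10.1 in KO2, and 60.3 and 32.1 in control. The 3 groups did not overlap, with KO2 lowest, but the controls differed from each other by 0.91 on the log2 scale, the widest gap between controls of any principal member transcript. Dnmt3b-207 fell by 1.97 ± 0.36 in KO2 (SE, limma adjusted p = 0.0378), or by 1.65 relative to the median of all transcripts. That median was -0.32, while the median over principal transcripts alone was lower, at -0.58, so the excess over its own class is smaller. In KO1 the change of Dnmt3b-207 was -0.85 ± 0.36 (adjusted p = 0.224; -1.30 to -0.39 without any 1 library), in the average of both -1.41 ± 0.31 (adjusted p = 0.0513), and KO1 minus KO2 was 1.12 ± 0.36 (adjusted p = 0.242). It was the only principal transcript of the 7 genes to pass in KO2, where 17.1% of the principal transcripts of all genes did, and in the average 0 of 7 passed against 14.7%. An antisense gene, Dnmt3bos, overlaps it. The retained-intron transcripts Dnmt3b-211 and Dnmt3b-212, with internal starts, had indices of -3.82 to -1.89 over the 6 libraries and no call.

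Dnmt3l, the cofactor, lies on chromosome 10 (78041947 to 78063622, plus strand). Dnmt3l-201, its principal transcript, had an index of 6.41 and 5.79 in KO1, 5.51 and 5.54 in KO2, and 5.50 and 5.66 in control. Both KO1 libraries were above both controls and KO2 overlapped them. The change was 0.52 ± 0.25 in KO1 and -0.05 ± 0.25 in KO2, and neither passed (SE, limma adjusted p of 0.263 and 0.906). Without any 1 library the KO1 value lay between 0.21 and 0.83. At Dnmt3l-208, which starts 117 bases downstream, the index was 2.95 and 2.87 in KO1, 2.78 and 2.92 in KO2, and 2.67 and 2.67 in control, again without a call. Dnmt3l-202, from an internal start 5493 bases downstream, had 4.00 and 4.21 in KO1, 3.76 and 3.50 in KO2, and 3.85 and 4.10 in control. None of the 4 Dnmt3l transcripts passed in any comparison.

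**Figure D3:**
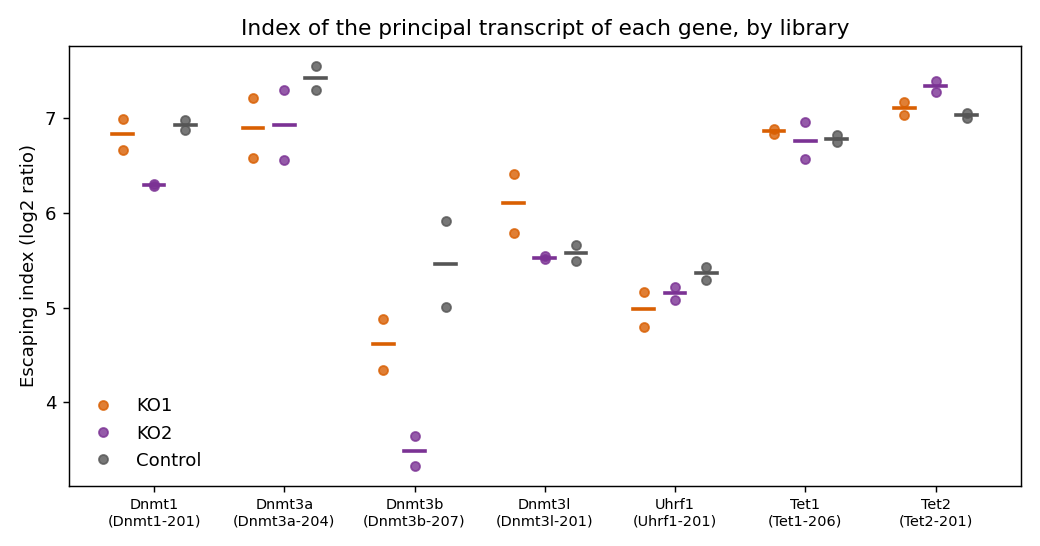
Escaping index (log2, y axis) of the principal transcript of each of the 7 genes, with a point for each library and a bar at the group mean, KO1, KO2 and control side by side. Dnmt3b-207 separates most, at 4.35 and 4.88 in KO1 and 3.65 and 3.33 in KO2 against 5.92 and 5.00 in control, whereas the means of Tet1-206 differ by 0.10 or less.

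No transcript of the maintenance pair was called. Dnmt1 lies on the minus strand of chromosome 9 (20907209 to 20959888). Its principal transcript, Dnmt1-201, had an index of 6.99 and 6.67 in KO1, 6.28 and 6.31 in KO2, and 6.98 and 6.88 in control. Both KO2 libraries were below the other 4, and KO1 overlapped control. The change was -0.10 ± 0.19 in KO1 and -0.64 ± 0.19 in KO2 (SE, limma adjusted p of 0.783 and 0.0869), and the KO1 value turned to 0.12 after median centring.

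All 6 Dnmt1 transcripts had values below 0 for the change in each knockout, at a median of -0.11 in KO1 and -0.46 in KO2, and none passed. Over all transcripts 65.5% were below 0 in KO1 and 71.1% in KO2. Of the 6, 4 in KO1 and 1 in KO2 lay above the median of all transcripts. Since 4 Dnmt1 transcripts start within 374 bases of one another, the 6 are not independent observations. Dnmt1-203 had 6.63 and 6.50 in KO1, 6.40 and 6.47 in KO2, and 6.97 and 6.82 in control. Dnmt1-207 had 6.40 and 6.35 in KO1, 5.99 and 6.07 in KO2, and 6.48 and 6.52 in control. In both, every knockout library was below both controls. The retained-intron transcript Dnmt1-206 was lowest in the KO1 libraries, with 0.65 and 0.67 in KO1 and 1.06 and 1.09 in KO2, against 1.09 and 1.09 in control (KO1 change -0.43 ± 0.18, limma adjusted p = 0.217). Dnmt1-205 and Dnmt1-204 had changes of -0.57 to -0.02 over both knockouts. Mir7081 lies on the span of Dnmt1-201, Dnmt1-203 and Dnmt1-207.

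Uhrf1 lies on chromosome 17 (56303321 to 56323486, plus strand). Uhrf1-201 had an index of 4.80 and 5.17 in KO1, 5.09 and 5.22 in KO2, and 5.43 and 5.29 in control. Every knockout library was under both controls, by a margin smaller than the gap between the KO1 libraries, and neither change passed (-0.38 ± 0.20 in KO1 and -0.21 ± 0.20 in KO2, SE, limma adjusted p of 0.297 and 0.510; the KO2 value turned to 0.12 after median centring). Uhrf1-202, which starts 992 bases downstream, had 3.23 and 3.19 in KO1, 3.07 and 2.95 in KO2, and 3.10 and 3.22 in control, and the groups differed by less than 0.2 in their means. The 6 Uhrf1 transcripts had changes of -0.46 to 0.33 over both knockouts, and the smallest limma adjusted p against control among them was 0.224.

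Tet1 lies on the minus strand of chromosome 10 (62804570 to 62908996) and had 9 transcripts. Its principal transcript Tet1-206 spans 94.5 kb and had an index of 6.89 and 6.83 in KO1, 6.96 and 6.57 in KO2, and 6.75 and 6.83 in control. Both KO1 libraries were just above both controls and KO2 overlapped them, and the change was 0.08 ± 0.20 in KO1 and -0.02 ± 0.20 in KO2 (SE, limma adjusted p of 0.851 and 0.956; the KO2 value was 0.31 after median centring). Over the 12979 principal transcripts of all genes the median change was -0.37 in KO1 and -0.58 in KO2.

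The inner Tet1 starts gave values in both directions, and none was called. Tet1-210 and Tet1-207, starting 11606 and 11794 bases downstream, had changes of -0.40 to -0.23. Tet1-201, a coding transcript starting 19104 bases downstream, had 4.62 and 4.66 in KO1, 4.68 and 4.77 in KO2, and 4.48 and 4.47 in control, so that every knockout library was above both controls. Tet1-209, which starts 6132 bases downstream, had 1.16 and 1.19 in KO1 and 1.92 and 1.96 in KO2, against 1.98 and 2.10 in control. Its KO1 change of -0.86 ± 0.18 (SE) had a limma adjusted p of 0.0811, and KO1 minus KO2 was -0.77 ± 0.18 (adjusted p = 0.195). Tet1-202 had changes of -0.02 in KO1 and -0.31 in KO2. Near the 3′ end, Tet1-204, Tet1-205 and Tet1-203 start 84577 to 84579 bases downstream, so they are not independent observations. All 3 had KO2 values above both controls, with changes of 0.04 to 0.06 in KO1 and 0.42 to 0.46 in KO2, none of which passed. Gm48353 lies on the same strand within Tet1-206, Tet1-201 and Tet1-202, and Gm26479 within Tet1-206.

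Tet2, on the minus strand of chromosome 3 (133463679 to 133545139), held the largest index of the members, at Tet2-205, a start upstream of the main promoter. Tet2-201, the principal transcript from the CG-rich promoter shown above, starts at position 133544390 and spans 80.7 kb. Its index was 7.17 and 7.04 in KO1, 7.39 and 7.28 in KO2, and 7.01 and 7.05 in control. Both KO2 libraries were above both controls, the KO1 libraries overlapped them, and neither change passed (0.07 ± 0.18 in KO1 and 0.31 ± 0.18 in KO2, SE, limma adjusted p of 0.831 and 0.292). Tet2-204, Tet2-203 and Tet2-202, which start 22, 88 and 104 bases downstream, had changes of 0.00 to 0.14 in KO1 and 0.20 to 0.24 in KO2, also without a call.

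Tet2-205 starts 749 bases upstream of Tet2-201, at position 133545139, and spans 56.6 kb of the same gene. That span includes the start of Tet2-201. Only the ratio is known, so whether signal near the start of Tet2-205 or downstream of it changed was not tested. The index of Tet2-205 was 9.18 and 9.17 in KO1, 8.66 and 8.59 in KO2, and 10.33 and 10.26 in control. On the linear scale the index was 579 and 576 in KO1, 404 and 386 in KO2, and 1289 and 1227 in control. The 4 knockout libraries were all under both controls, and the libraries of a group lay within 0.1 of each other on the log2 scale. The index fell by 1.67 ± 0.21 in KO2 (SE, limma adjusted p = 0.0354), which is 1.36 below the median of all transcripts. In the average of both knockouts it fell by 1.40 ± 0.18 (limma adjusted p = 0.0341), which is 1.14 below the median of all transcripts in that comparison. In KO1 it was -1.12 ± 0.21 (adjusted p = 0.0764), and KO1 minus KO2 was 0.55 ± 0.21 (adjusted p = 0.286). The gene Gm42567 overlaps Tet2-205 on the other strand.

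The difference between the upstream and the principal Tet2 start was also taken within each library, which removes any shift of a library as a whole. Tet2-205 minus Tet2-201 was 2.01 and 2.13 in KO1, 1.26 and 1.31 in KO2, and 3.32 and 3.21 in control. The KO2 libraries were lowest and the controls highest, with no overlap. The difference was smaller than in control by 1.20 in KO1 (log2 change -1.20 ± 0.12, limma adjusted p = 0.126), and the change was -1.98 ± 0.12 in KO2 (adjusted p = 0.0672) and -1.59 ± 0.10 in the average (adjusted p = 0.0754). None passed, and 0 of 47999 such differences over all genes passed in KO2, where 10607 had an unadjusted p under 0.05 and the smallest limma adjusted p was also 0.0672. This comparison was chosen after the values had been seen. For Dnmt3a, the internal Dnmt3a-203 minus the upstream Dnmt3a-204 changed by -0.61 ± 0.49 in KO2 (limma adjusted p = 0.526), so a fall particular to the internal promoter was not established.

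The remaining Tet2 transcripts, which start 63.7 to 72.6 kb downstream, had changes of -0.87 to 0.21 over both knockouts. Tet2-210 was the lowest of them, with 1.20 and 1.22 in KO1, 2.01 and 1.93 in KO2, and 2.33 and 1.84 in control (KO1 change -0.87 ± 0.23, SE, limma adjusted p = 0.107). Over the 10 Tet2 transcripts, both KO2 libraries lay above both controls in 5 and below both in 2, where 11.8% and 48.6% of all transcripts did.

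The calls named above rest on all 6 libraries and on the deposited scale. Under median centring, and when any 1 library was left out, no member passed an adjusted p under 0.05. With a pseudocount of 4, Tet2-205 and Dnmt3b-207 in KO2 were -1.66 and -1.66. The linear index of Tet2-205 was 386 to 1289 over the 6 libraries. Adding 4 could hardly change it, so this alternative does not test that fall. With the same pseudocount, Dnmt3a-205 was -0.68 in KO2 and -0.45 in the average. Dnmt3a-203 in KO2 was -0.72 and Dnmt3a-217 in the average was -0.66, the last pair without a call (limma adjusted p of 0.0527 and 0.0539).

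Over all members, both KO2 libraries lay below both controls in 17 of 49 (34.7%, against 48.6% of all transcripts) and above both in 16 (32.7%, against 11.8%). The KO1 libraries lay below both controls in 18 (36.7%, against 40.9%) and above in 8 (16.3%, against 14.7%). At an unadjusted p under 0.05, 8 members were lower and 2 higher in KO2, against 28.6% and 3.11% of all transcripts, and 9.81% of all transcripts past that level were higher. After median centring 5 of the 49 were lower and 15 higher, beside 8901 lower and 7456 higher of 66944 transcripts. Of the 16357 transcripts past that level, 45.6% were then higher. The balance of directions thus depends on whether the global shift is kept. Transcripts of a gene often share their range, so the 49 are not independent observations. In 33 internal starts the median change in KO2 was -0.08 with 2 calls, in the 15 at principal promoters it was -0.06 with 1 call, and the single upstream start was called. Over all transcripts 9.79% were called in KO2, and these counts are too small to set any kind of start apart.

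KO1 and KO2 were also set directly against each other. None of 49 members and 0% of 66944 transcripts passed (limma, smallest adjusted p over all 0.188), and 10 members (20.4%) and 10922 transcripts (16.3%) had an unadjusted p under 0.05. Of the 10, 5 were higher in KO1 and 5 lower, against 12% and 4.34% of all transcripts. After median centring, and likewise after quantile normalization, 3 were higher in KO1 and 11 lower, while 54.3% and 52.3% of all transcripts past that level were higher. By gene, Dnmt1 had both KO1 libraries above both KO2 libraries in 5 of 6 transcripts, and Tet1 had them below in 5 of 9, where 33.5% of all transcripts had them above and 16.6% below. Many transcripts of a gene overlap in span, so these are not counts of independent observations.

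Because the index rises with span, levels of the principal transcripts of different genes were compared per kilobase. Dividing by span takes the linear index as proportional to it, which was not tested, so an effect of length may remain. Across the 49 members the control index had a Pearson's r of 0.889 and a Spearman's rho of 0.904 with the log2 span, and across all transcripts 0.803 and 0.810; transcripts of a gene share their downstream range, and no p is given. The linear control index per kb of span averaged, on the log2 scale and turned back, 3.47 for Dnmt3l, 2.67 for Dnmt1, 2.04 for Uhrf1, 1.91 for Dnmt3a, 1.62 for Tet2, 1.17 for Dnmt3b and 1.17 for Tet1, against a median of 1.20 over all principal transcripts. By library, the neighbours Uhrf1 (2.14 and 1.94) and Dnmt3a (2.09 and 1.75) overlapped in control, as did Dnmt3b (1.60 and 0.851) with both Tet1 (1.14 and 1.20) and Tet2 (1.60 and 1.65), and the other neighbours did not. In KO2, Dnmt3b had 0.333 and 0.267 per kb and was lowest of the 7, below Tet1 (1.32 and 1.00) and Dnmt3a (1.75 and 1.05), which overlapped each other. The order holds for principal transcripts alone and is no ranking of genes. In control, Dnmt1-203 was near its principal transcript at 2.61 per kb. Others were far from theirs, with 0.466 at Dnmt3l-208, 5.21 at Tet1-202, 0.295 at Tet1-201 and 22.2 at Tet2-205.

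**Figure D4:**
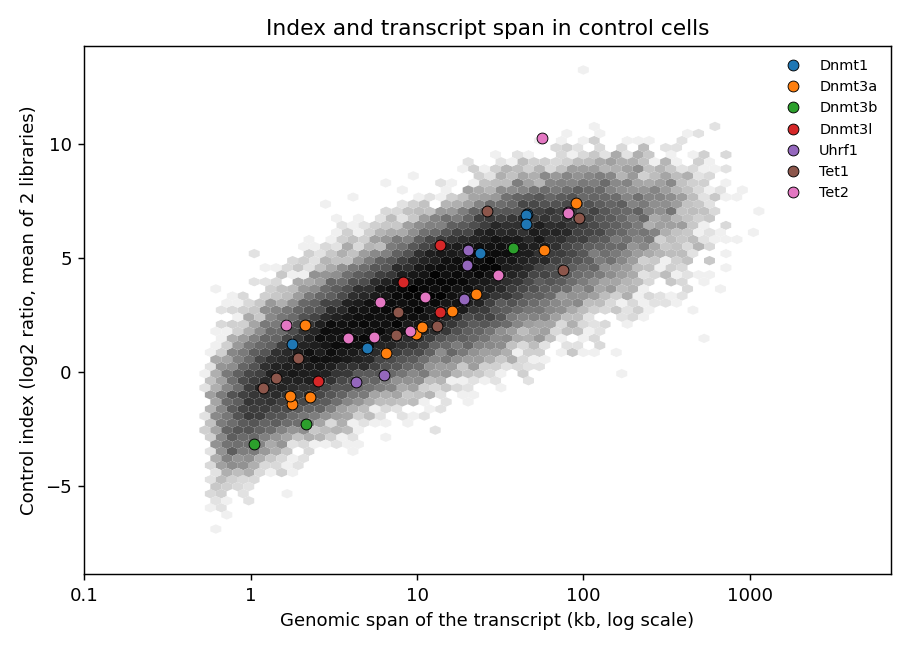
Control escaping index (log2, y axis, mean of 2 libraries) against the genomic span of the transcript (kb, x axis on a log scale), with the 49 member transcripts as points coloured by gene over all transcripts in grey. Longer transcripts have a higher index (Pearson's r of 0.889 with the log2 span), and Tet2-205 lies highest, at 10.30.

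For each gene, the principal transcript with the most similar pattern over the 6 libraries was sought among 12978 others, by Euclidean distance after each transcript's mean was taken off. It was Pum3 for Dnmt1 (distance 0.097), Mrtfa for Uhrf1 (0.088), Nono for Tet1 (0.098), Sfswap for Tet2 (0.111), Misp for Dnmt3a (0.140), Ogdh for Dnmt3l (0.186) and Aak1 for Dnmt3b (0.391). Dnmt3b, whose changes were widest, had the least close neighbour. The distance is not scaled to the size of the changes, so wide changes alone can make it larger.

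The wider DNA methylation pathway was read from a list of 59 other genes, of which 56 had a principal transcript. In KO2, 8 fell, none rose and 48 did not pass (14.3% called, against 17.1% of all principal transcripts), and their median change was -0.49 against -0.58. In the average of both knockouts 6 fell, none rose and 50 did not pass (10.7%, against 14.7%), with a median of -0.49 against -0.47. In KO1 limma called none, as over all principal transcripts (0%), and 44 of 56 were below 0, as were 77% of all principal transcripts. Those shares are near the background and are no result about the list.

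The 6 that fell in the average of both knockouts were Setdb1, Ehmt1, Cxxc5, Cdca7, Mbd6 and Apex1. Setdb1 and Ehmt1, histone H3K9 methyltransferases, had changes of -1.21 ± 0.15 and -1.21 ± 0.18 (SE, limma adjusted p of 0.0341 and 0.0346). For Setdb1 the index was 5.89 and 6.05 in KO1, 5.76 and 5.59 in KO2, and 7.08 and 6.99 in control, with every knockout library below both controls. Cxxc5, a zinc finger protein that binds unmethylated CG, changed by -1.14 ± 0.16 (adjusted p = 0.0345) and Cdca7, a partner of the remodeller Hells, by -1.12 ± 0.19 (adjusted p = 0.0373). Mbd6, a methyl-CpG-binding domain family protein, changed by -1.42 ± 0.26 (adjusted p = 0.0389) and the base excision repair endonuclease Apex1 by -0.70 ± 0.14 (adjusted p = 0.0445). None of the pathway calls remained under median centring or without any 1 library.

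Closer relatives of the 7 genes were not called in that average. Tet3, the remaining TET dioxygenase, had a change of -0.68 ± 0.24 (SE, limma adjusted p = 0.131), with 5.73 and 5.14 in KO1, 4.95 and 4.76 in KO2, and 6.07 and 5.57 in control. Uhrf2, the paralog of Uhrf1, had -0.64 ± 0.14 (adjusted p = 0.0526) in the average and passed in KO2 alone (-0.87 ± 0.17, adjusted p = 0.0397). Hells had -0.47 ± 0.17 (adjusted p = 0.129), the glycosylase Tdg, which excises oxidised cytosines, -0.18 ± 0.17 (adjusted p = 0.524), and the corepressor Trim28 -0.17 ± 0.23 (adjusted p = 0.658), the last pair turning to 0.09 and 0.10 after median centring. Dppa3, which in mouse oocytes limits Uhrf1, had 0.46 ± 0.25 (adjusted p = 0.263).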

How the data were processed

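The 6 libraries were mNET-seq libraries from KO1, KO2 and control cells. The submitters' processing notes name CASAVA, Trimmomatic 0.38, HISAT2 2.1.0, featureCounts and the mm10 build. Their settings, and any use of strand, were not given in the sources used here. Per the labels, all 6 libraries share 1 protocol. The authors deposited log2 escaping index values for 68473 transcripts, and the read depth is unknown. Of these, 68397 matched GENCODE M21 by identifier without version, and 76 did not and were left out. Where transcripts of a gene held identical values, 1 was kept, which left 66944. Start positions, types and overlapping genes came from GENCODE M21, promoter sequences from RefSeq (GRCm38.p6). The principal transcript of a gene is its coding transcript with the longest genomic span in the table. The 3 groups were fitted together on the deposited values with limma 3.58.1 (R 4.3.3, trend on the mean index, 3 residual and 2.72 prior degrees of freedom, two-sided). Benjamini-Hochberg adjustment ran over all 66944 transcripts, and an adjusted p under 0.05 was a call. The fit was tested on simulated data.

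The members, gene lists and rules were chosen with earlier results of these data known. Named genes were every distinct member transcript, up to 8 pathway genes called in the average contrast with Tet3, Uhrf2, Hells, Tdg, Dppa3 and Trim28, and the nearest gene in pattern to each member. Setdb1 was given by library, as Tet3 was, after its values were seen. Alternatives were median centring, quantile normalization, pseudocounts of 0.4 and 4 (after taking off 0.5 times the smallest linear value), a filter on a mean index of at least 0, coding transcripts alone, 1 principal transcript per gene, gene averages, no variance trend, 2 groups alone, the 4 knockout libraries as 1 group, a replicate block, each library left out and, chosen after seeing the data, the difference from the principal transcript. Summaries used Python 3.11.15 and pandas 2.3.3.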

Additional observations from a re-analysis of the deposited data

Results flagged for a closer look

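In 2 of 49 member transcripts (4.08%), both KO1 libraries lay below both controls and both KO2 libraries above them, a pattern that 1.24% of all transcripts had. The mirror pattern, KO1 above and KO2 below both controls, was seen in 0 of 49 members and 2.55% of all transcripts. Opposite knockout patterns are thus no result about the members as a group. The 2 with the first pattern are Dnmt3l-207 and Uhrf1-206. Dnmt3l-207, from an internal start 4993 bases downstream of Dnmt3l-201, had an index of -0.82 and -0.61 in KO1, -0.10 and 0.17 in KO2, and -0.50 and -0.29 in control, and KO1 minus KO2 was -0.75 (limma adjusted p = 0.225). Uhrf1-206, which starts 14705 bases downstream of Uhrf1-201, had -0.85 and -0.95 in KO1, -0.07 and -0.20 in KO2, and -0.39 and -0.49 in control, and KO1 minus KO2 was -0.77 (limma adjusted p = 0.205). No change of either transcript against control passed (for Dnmt3l-207, limma adjusted p = 0.424 in KO1, 0.247 in KO2; for Uhrf1-206, limma adjusted p = 0.224 in KO1, 0.344 in KO2), nor did the direct test of KO1 against KO2. Groups of 2 libraries are too small to test a single library for standing apart.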

How the results depend on the processing

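The counts of calls depended strongly on the fit. In KO2, the 4 member calls, the 6554 calls over all transcripts and the 8 pathway calls all became 0 under median centring, quantile normalization, the replicate block, the 2 compared groups alone, and each library left out (0 to 0). In the average of both knockouts, the 3 member calls, the 5682 over all transcripts and the 6 pathway calls likewise became 0 under median centring, quantile normalization, the replicate block and each library left out (0 to 0). Member calls were also 0 in both comparisons for gene averages and for the difference from the principal transcript, and 1 each for 1 principal transcript per gene. With 1 principal transcript per gene, calls over all transcripts were 808 for KO1, 3835 for KO2 and 3444 for the average, and pathway calls 2, 16 and 16. With coding transcripts alone, KO1 had 754 calls, and pathway calls were 2 for KO1, 13 for KO2 and 12 for the average. Gene averages gave 1225 calls in KO2 and 1038 in the average, with 3 pathway calls in each. The 4 knockout libraries as 1 group gave 2478 calls over all transcripts in the average. Fewer transcripts were tested with coding or principal transcripts, and fewer libraries with 1 left out; the cause of the other losses was not tested.

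Replicate numbers did not pair the libraries. The correlation of replicate differences was 0.0152 between KO1 and KO2, -0.00738 between KO1 and control, and -4.2e-05 between KO2 and control. The replicate block gave 0 calls over all transcripts, but so did leaving out each library, so that count does not bear on pairing.

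Reversals were followed for 70 results alone: the principal and the called member transcripts, and the pathway genes called or named. Other members reversed too. Under median centring, members below 0 went from 26 to 18 of 49 in KO1 and from 30 to 15 in KO2. Among the results followed, the changes that reversed had no call on the deposited scale. Under median centring they were, in KO1, Dnmt1-201 (0.12) and Dnmt3a-203 (0.15), and in KO2 Dnmt3l-201 (0.28), Tet1-206 (0.31), Uhrf1-201 (0.12), Tdg (0.022) and Trim28 (0.19). In the average they were Tdg (0.092) and Trim28 (0.10), and for KO1 minus KO2 Tet1-206 (-0.012). Quantile normalization reversed, in KO1, Dnmt1-201 (0.22) and Dnmt3a-203 (0.16), and in KO2 Dnmt3l-201 (0.39), Tet1-206 (0.45), Uhrf1-201 (0.23), Hells (0.016), Tdg (0.089) and Trim28 (0.31). It also reversed, in the average, Dnmt1-201 (0.025), Uhrf1-201 (0.071), Tdg (0.15) and Trim28 (0.20), and for KO1 minus KO2 Tet1-206 (-0.056). Gene averages reversed Tet1 (-0.12 in KO1, 0.045 in KO2, -0.036 in the average, -0.16 for KO1 minus KO2), Tet2 (-0.19 in KO1, -0.12 in KO2, -0.16 in the average), Dnmt3l (0.052 in KO2), Tdg (0.014 in KO2) and Trim28 (0.16 in KO2, 0.13 in the average).

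Among the results followed, leaving out 1 library at a time turned the sign of 9 uncalled changes. The other member transcripts were not followed in this way. In KO1 the ranges were -0.26 to 0.059 for Dnmt1-201 and -0.30 to 0.16 for Dnmt3a-203. In KO2 they were -0.14 to 0.029 for Dnmt3l-201, -0.31 to 0.034 for Trim28 and -0.22 to 0.18 for Tet1-206. For Tet1-206 in the average the range was -0.071 to 0.13. For KO1 minus KO2 they were -0.40 to 0.34 for Dnmt3a-204, -0.10 to 0.29 for Tet1-206 and -0.35 to 0.015 for Uhrf1-201.

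Of 1158 values under alternatives, for 70 results, 881 kept their direction and side of the threshold, 220 lost it, 10 gained it and 47 reversed. With 2 libraries a group and unknown depth, a missing call does not show that an index was unchanged.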
